A study of Mus musculus with 8 samples.

Results

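The 42 genes described here encode the antioxidant transcription factor NRF2 (gene Nfe2l2), its sensor KEAP1, and enzymes that make glutathione, remove peroxides and superoxide, or detoxify quinones, carbonyls, aldehydes and epoxides. They were chosen by function, by a rule that uses no measured value, but with earlier results of the arrays known. The GSTA, GSTM, GSTP1 and GSTT1 glutathione transferases were left out. The array carried a probe for 38 of the 42 genes, out of 16593 genes with a probe, and 33 of them were among the 8360 genes tested. The L63RhoA group was mouse bone marrow mesenchymal stem cells (MSCs) at passage 6 transfected with a plasmid for Myc-tagged L63RhoA, a constitutively active form of the small GTPase RhoA, and the EV group was the same MSCs transfected with an empty vector. Each group had 4 samples, and the RNA of each was hybridized to 1 Illumina MouseRef-8 array. The sample records give the harvest as 48 h after transfection, whereas the methods give 3 days. The design text counts 4 independent experiments but does not tie the array numbers to them, so the p-values rest on how far these particular samples spread. The plasmid was delivered with Lipofectamine LTX, and a signal is the average over all cells of a dish, so a change in every cell and a larger change in the transfected cells cannot be told apart. Likewise, fewer cells of a type and less RNA per cell cannot be told apart.

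In resting cells KEAP1 holds NRF2 in the cytoplasm and directs its degradation. Oxidants and electrophiles modify KEAP1, and NRF2 then enters the nucleus and binds antioxidant response elements of genes such as Nqo1, Gclm, Srxn1 and Slc7a11. Carbonyl reductases and aldehyde dehydrogenases remove reactive carbonyls and aldehydes, many of them products of lipid peroxidation.

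Values below are log2 intensities after background correction and quantile normalization, and a log2 difference is the mean of the L63RhoA arrays minus the mean of the EV arrays. Between 11925 and 12981 of 25697 probes were detected on the L63RhoA arrays and between 12546 and 12928 on the EV arrays. The single Rhoa probe was detected on 0 of 8 arrays, so the arrays gave no check of the transfected gene. Of 14 MSC markers with a probe, 12 were detected on every array, Lepr and Thy1 on none, and 9 of 10 haematopoietic markers, Ptprc included, were detected on none. The remaining haematopoietic marker, Cd14, was detected on every array. Of the 12 tested MSC markers, 4 had positive and 8 had negative differences. Only Cxcl12 passed, at 0.85 (limma adjusted p = 0.00633). The summed normalized intensity of 5 smooth muscle markers was 1476 to 1670 on L63RhoA arrays and 539 to 852 on EV arrays, with Acta2 and Des detected throughout and Myh11 and Cnn1 on none. Acta2 made up most of this sum, with a log2 difference of 1.18 (limma adjusted p = 0.0058), whereas Des differed by 0.27 (adjusted p = 0.377). Adipocyte markers summed to 255 to 273 on L63RhoA arrays and 164 to 220 on EV arrays, with Adipoq, Fabp4, Plin1 and Cidec detected on none. Of the adipocyte markers tested, Lpl differed by 0.52 (limma adjusted p = 0.0422) and Pparg by 0.15 (adjusted p = 0.584). Endothelial markers summed to 59.1 to 119 on L63RhoA arrays and 54.7 to 63.9 on EV arrays, ranges that overlapped, with Cdh5, Emcn and Tie1 detected on none. These sums rest on few detected genes, and the part of their differences in the results below was not tested. Within groups, 1 principal component took up 48.2% of the variance. Scores on it were centred over all 8 arrays, with the sign set so that L63RhoA scored higher on average. They therefore also hold the difference between the groups. On this component L63RhoA array 1 scored -8.90 while the other L63RhoA arrays scored 13.03 to 15.23. EV array 3 scored 9.12 while the other EV arrays scored -20.2 to -3.53. Apart from L63RhoA array 1, the L63RhoA arrays scored above every EV array, so this component and the group difference overlapped.

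In MSCs with active RhoA, 2 of the 33 tested genes rose relative to EV at a limma adjusted p under 0.05. They were Cbr2, a tetrameric carbonyl reductase known from mouse lung mitochondria, and Aldh3a1, an aldehyde dehydrogenase that oxidizes aromatic and medium-chain aldehydes. The share was 6.06%, where 0.383% of all genes tested rose at this threshold. None was lower at this threshold (0 of 33 by limma, 0.323% of all genes). By the methods' t-test after adjustment, 1 member was higher and 0 were lower, where 27 of 8360 genes passed, 16 of them higher. At an unadjusted limma p under 0.05, 11 of 33 members were higher in L63RhoA (33.3%, against 13.7% of all genes) and 3 were lower (9.09%, against 10.7% of all genes). The arrays of the groups did not overlap for 8 members that were higher (24.2%, against 5.2% of all genes) and for 2 that were lower (6.06%, against 4.72%). The threshold of the methods, a fold over 2 with an adjusted p under 0.20, was passed by 0 members and by 0.132% of all genes, and Cbr2 came nearest to that fold. The median log2 difference was 0.16 over the 33 members and 0.01 over all genes, with 23 members positive and 10 negative. These counts describe genes chosen with earlier results of the arrays known and are not a test of the list.

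**Figure D1:**
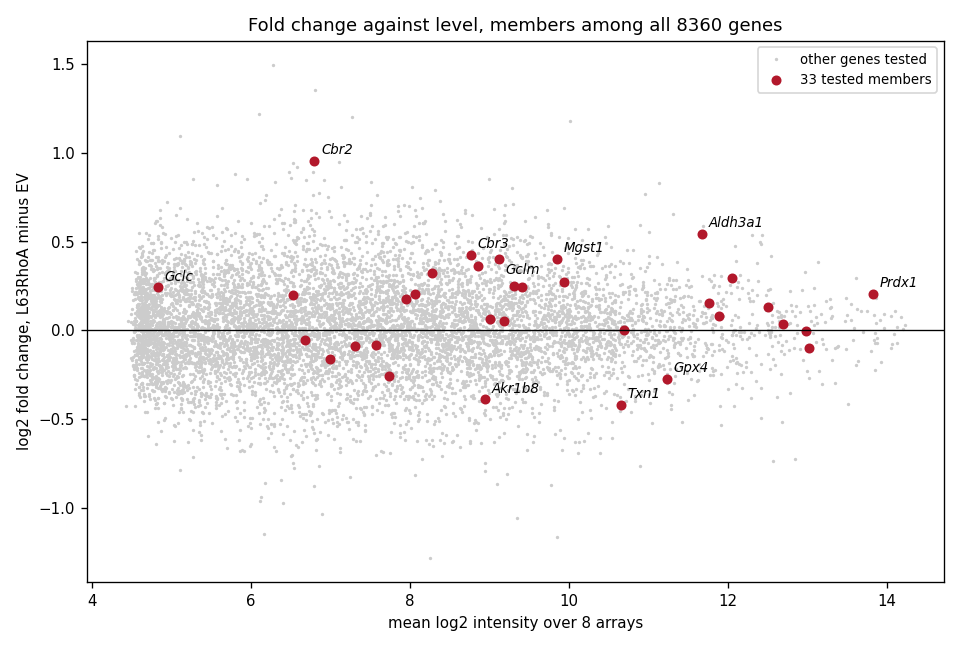
Log2 fold change (L63RhoA minus EV, vertical axis) against the mean log2 intensity over 8 arrays (horizontal axis) for 8360 genes in grey and 33 members in red. Members lie between -0.42 (Txn1) and 0.95 (Cbr2), inside the range of all genes, which runs from -1.28 to 1.49.

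The carbonyl reductases and the aldo-keto reductase did not move together. Cbr2 measured 7.02, 7.35, 7.45 and 7.27 on L63RhoA arrays 1 to 4, against 6.33, 6.22, 6.45 and 6.28 on EV arrays 1 to 4. Every L63RhoA array lay above every EV array, with array 1 the lowest of its group. Cbr2 thus rose by a log2 difference of 0.95 ± 0.11 (SE, n = 4 arrays per group), or 1.94-fold (95% confidence interval 1.64 to 2.29), with a limma adjusted p of 0.00331. The deposited intensities of this probe were 221 to 266 on L63RhoA arrays and 131 to 179 on EV arrays, where the lowest intensity of any probe was 75.2. Its log2 difference depended on the background level, since it was 0.56 without further background correction (limma adjusted p = 0.00345). With EV arrays 2 and 4 left out, it was 0.89 with a limma adjusted p of 0.0807.

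Cbr3, a cytosolic carbonyl reductase, measured 8.73, 9.02, 9.09 and 9.07 on L63RhoA arrays and 8.45, 8.65, 8.83 and 8.28 on EV arrays. L63RhoA array 1 fell below EV array 3, so the groups overlapped. Its log2 difference was 0.42 ± 0.13 (SE) with a limma adjusted p of 0.12, and a second probe gave 0.28. Without L63RhoA array 1 or without EV array 3 it passed the threshold (0.51 with adjusted p = 0.0349 and 0.52 with adjusted p = 0.0388, limma). Under these omissions, in that order, 15.07% and 10.97% of all genes passed. With another array left out Cbr3 did not pass (limma adjusted p up to 0.285). Cbr1, the broad-substrate member of the family, differed by -0.08, with a 95% interval of -0.35 to 0.18.

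Akr1b8, an aldo-keto reductase that reduces aldehydes, went the other way, at 8.90, 8.64, 8.69 and 8.76 on L63RhoA arrays and 9.22, 9.07, 9.16 and 9.10 on EV arrays. The groups did not overlap. Its log2 difference was -0.39 ± 0.09 (SE), 1.31-fold lower in L63RhoA, with a limma adjusted p of 0.0789. It passed with the authors' processed values (-0.34, adjusted p = 0.0326, limma) and without L63RhoA array 1 (-0.44, adjusted p = 0.0189) or EV array 3 (-0.38, adjusted p = 0.0436). Leaving out any other array gave no pass, with a limma adjusted p up to 0.237.

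The promoter of Cbr2, the member with the largest log2 difference among the 33 tested, is shown because Cbr2 passed a limma adjusted p under 0.05. Aldh3a1, the other member that passed, had no window in the promoter set used. The rise of Cbr2 passed under 11 of 11 other processing settings, but several of these reuse the same values and are not separate checks. The window is RefSeq sequence of GRCm38.p6 from 250 bases before to 50 bases after the annotated start, here chr11:120731972-120732271 on the minus strand, and capitals would mark a motif match.
Cbr2 promoter: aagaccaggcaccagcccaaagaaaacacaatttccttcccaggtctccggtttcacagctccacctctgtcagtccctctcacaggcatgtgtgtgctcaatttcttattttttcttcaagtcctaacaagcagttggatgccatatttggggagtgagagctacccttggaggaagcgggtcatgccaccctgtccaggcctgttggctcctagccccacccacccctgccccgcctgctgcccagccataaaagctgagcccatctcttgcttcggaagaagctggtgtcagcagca
The core of the antioxidant response element, TGACNNNGC, and the AP-1 motif, TGAGTCA, were searched on both strands, and neither set of letters was found in this window. The element core was found in 12.4% of 32851 such windows of all genes and in 20.5% of the 44 windows of the 36 members listed, and the AP-1 motif in 5.2% and 11.4%. A match is a description of letters and not a binding site, and sequence outside the windows was not searched.

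Both aldehyde dehydrogenases that could be tested had positive differences, and 1 of them passed. Aldh3a1 measured 12.05, 11.80, 12.07 and 11.88 on L63RhoA arrays and 11.41, 11.31, 11.55 and 11.36 on EV arrays. All L63RhoA arrays exceeded all EV arrays. Aldh3a1 rose by 0.54 ± 0.10 on the log2 scale (SE, n = 4 arrays per group), or 1.46-fold (95% confidence interval 1.25 to 1.69), with a limma adjusted p of 0.039. This call was lost with median scaling in place of quantile normalization (adjusted p = 0.0685), with the replicate number as a block (adjusted p = 0.119) and by the methods' t-test after Benjamini-Hochberg adjustment (adjusted p = 0.081). It was also lost when any of L63RhoA arrays 2, 3 and 4 or EV arrays 1, 2 and 4 was left out (limma adjusted p between 0.0701 and 0.15).

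Aldh2, the mitochondrial enzyme that oxidizes acetaldehyde and lipid-derived aldehydes, measured 11.98, 12.25, 12.27 and 12.30 on L63RhoA arrays and 11.97, 11.77, 12.09 and 11.79 on EV arrays. L63RhoA array 1 lay among the EV arrays. Its log2 difference was 0.29 ± 0.11 (SE) with a limma adjusted p of 0.152, and it passed without L63RhoA array 1 (0.37, limma adjusted p = 0.0429). Omission of any other array did not make Aldh2 pass (limma adjusted p up to 0.335). Aldh1a1, which also makes retinoic acid, was detected on 0 of 8 arrays. Aox1, an aldehyde oxidase, had a pair of probes, detected on 2 L63RhoA arrays and 1 EV array at most, and was not tested.

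Ephx1, the microsomal epoxide hydrolase, measured 8.83, 9.14, 9.10 and 9.10 on L63RhoA arrays and 8.81, 8.52, 8.87 and 8.49 on EV arrays. L63RhoA array 1 lay next to EV arrays 1 and 3, so the groups overlapped. For Ephx1 the log2 difference was 0.36 ± 0.12 (SE), limma adjusted p = 0.125, and it passed without L63RhoA array 1 (0.44, adjusted p = 0.0371) or without EV array 3 (0.43, adjusted p = 0.0485). When another array was left out it did not pass (limma adjusted p up to 0.300). Ugdh, which supplies UDP-glucuronic acid for glucuronidation, was detected on 0 of 8 arrays.

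**Figure D2:**
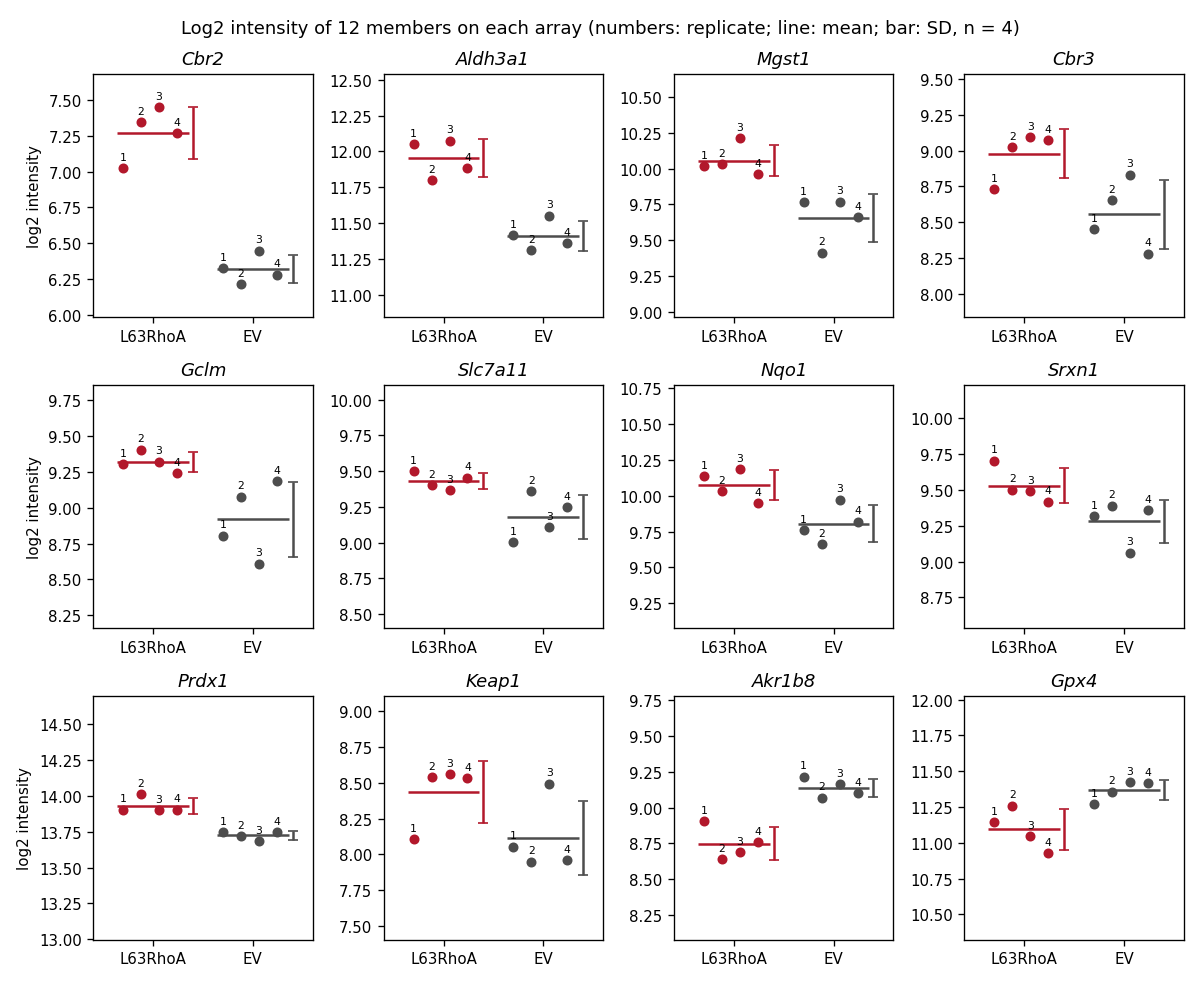
Log2 intensity (vertical axes, each spanning the same number of log2 units) of 12 members on each L63RhoA array (red, left) and EV array (grey, right), numbered by replicate, with the mean as a line and the SD as a bar (n = 4). Cbr2, Aldh3a1, Mgst1, Gclm, Slc7a11, Srxn1 and Prdx1 lie higher on every L63RhoA array than on any EV array, Akr1b8 and Gpx4 lie lower, and Cbr3, Nqo1 and Keap1 overlap.

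The regulators themselves did not pass the test. Nfe2l2 measured 8.33, 8.21, 8.16 and 7.98 on L63RhoA arrays and 7.79, 7.99, 8.01 and 8.08 on EV arrays. L63RhoA array 4 lay within the EV values. Nfe2l2 differed by 0.20 ± 0.10 (SE), with a limma adjusted p of 0.242. Keap1 measured 8.11, 8.54, 8.56 and 8.53 on L63RhoA arrays and 8.05, 7.95, 8.49 and 7.96 on EV arrays. Here L63RhoA array 1 sat with the EV arrays and EV array 3 with the L63RhoA arrays. Its log2 difference was 0.32 ± 0.15 (SE, limma adjusted p = 0.209), but 3 other Keap1 probes gave 0.23, -0.14 and -0.32, so the probes of this gene did not give 1 direction. The brightest probe passed without EV array 3 (0.45, limma adjusted p = 0.049). It did not pass with any other array left out (limma adjusted p up to 0.418). NRF2 is controlled chiefly as a protein, which these arrays did not measure.

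The 4 tested genes of glutathione synthesis had positive differences, none past the adjusted threshold. Slc7a11, the cystine transporter that brings in the amino acid limiting for glutathione, measured 9.50, 9.40, 9.37 and 9.45 on L63RhoA arrays and 9.01, 9.36, 9.11 and 9.25 on EV arrays. The lowest L63RhoA array stood just above the highest EV array. That made a log2 difference of 0.25 ± 0.10 (SE), limma adjusted p = 0.163. Gclm, the modifier subunit of glutamate-cysteine ligase, measured 9.30, 9.41, 9.32 and 9.24 on L63RhoA arrays and 8.81, 9.08, 8.61 and 9.19 on EV arrays. The groups did not overlap, and the EV arrays were spread more widely (SD 0.07 on L63RhoA arrays and 0.26 on EV arrays). For Gclm the log2 difference was 0.40 ± 0.13 (SE), limma adjusted p = 0.122.

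Gclc, the catalytic subunit of the same ligase, measured 5.34, 5.09, 4.73 and 4.61 on L63RhoA arrays and 4.72, 4.60, 4.59 and 4.90 on EV arrays. L63RhoA arrays 1 and 2 were above all EV arrays and L63RhoA arrays 3 and 4 were not. Its log2 difference was 0.24 ± 0.16 (SE), limma adjusted p = 0.345, and it was 0.11 without L63RhoA array 1 and 0.07 on the authors' processed values. Gss, glutathione synthetase, differed by 0.20 (limma adjusted p = 0.359), with 0.11 and 0.00 at its other probes and 0.10 without EV array 4. Glutathione reductase, Gsr, had no probe here, and neither did G6pdx, which supplies NADPH.

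Nqo1, the quinone reductase that is the usual readout of NRF2 activity, measured 10.14, 10.03, 10.19 and 9.95 on L63RhoA arrays and 9.76, 9.66, 9.97 and 9.82 on EV arrays. L63RhoA array 4 fell just below EV array 3. The log2 difference was 0.27 ± 0.10 (SE), a fold of 1.21, with a limma adjusted p of 0.146, and a second probe gave 0.00. Its promoter is shown as that of the standard NRF2 target, at chr8:107403156-107403455 on the minus strand (GRCm38.p6).
Nqo1 promoter: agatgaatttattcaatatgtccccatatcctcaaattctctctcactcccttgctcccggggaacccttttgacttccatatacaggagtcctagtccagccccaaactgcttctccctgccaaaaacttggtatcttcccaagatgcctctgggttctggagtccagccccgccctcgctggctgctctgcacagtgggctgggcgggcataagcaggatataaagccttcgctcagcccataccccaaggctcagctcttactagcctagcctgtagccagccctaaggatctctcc
Neither motif was found in this window, and sequence further upstream was not searched.

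**Figure D3:**
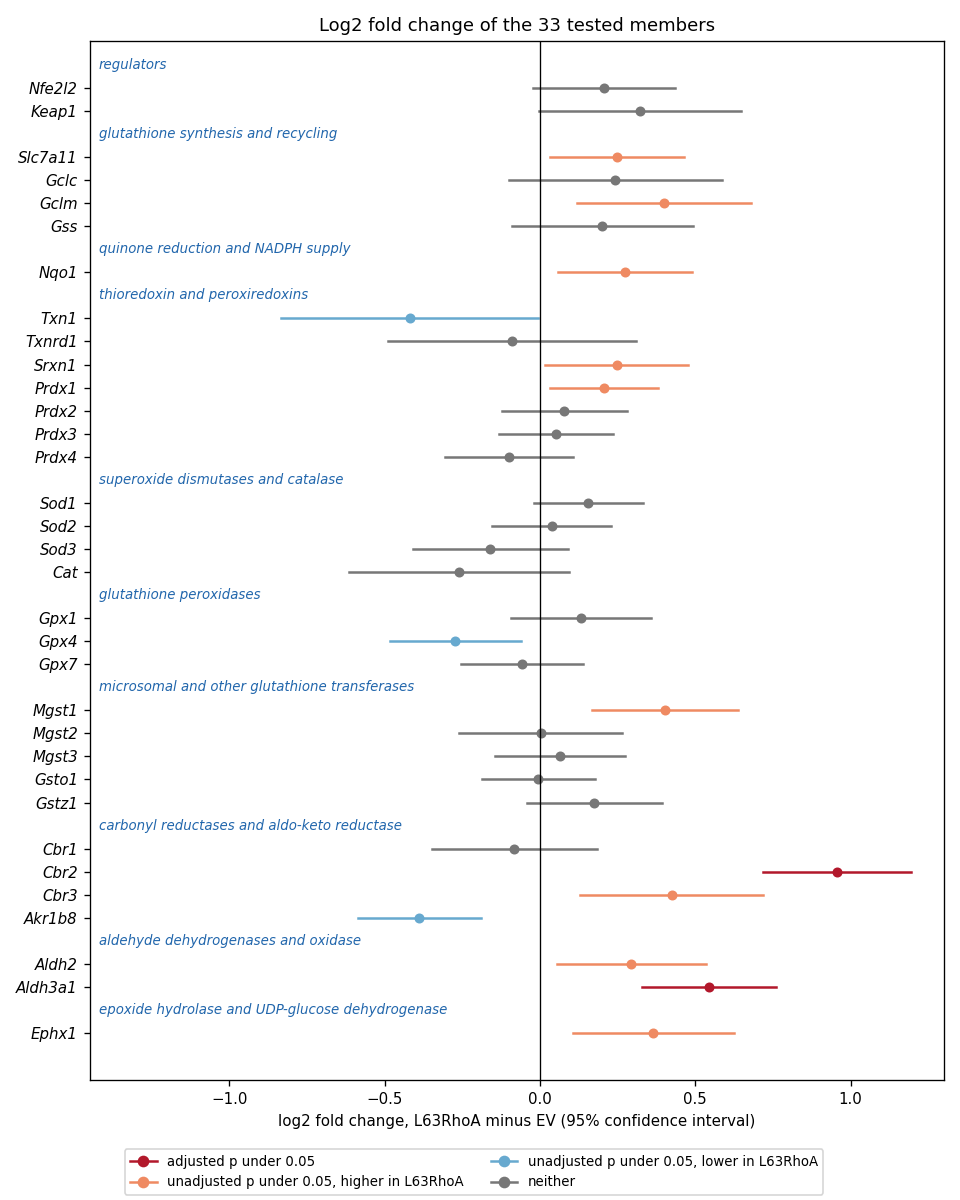
Log2 fold change, L63RhoA minus EV, of the 33 tested members by role, with 95% confidence intervals from limma. Cbr2 (0.95) and Aldh3a1 (0.54) pass an adjusted p under 0.05, and 3 intervals lie wholly below 0, those of Txn1, Gpx4 and Akr1b8.

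Thioredoxin and the peroxiredoxins moved both ways. Txn1, the small redox protein that reduces protein disulphides, measured 10.91, 10.35, 10.43 and 10.08 on L63RhoA arrays and 10.76, 11.07, 10.48 and 11.14 on EV arrays. L63RhoA array 1 was within the EV values. Its log2 difference was -0.42 ± 0.19 (SE) with a limma adjusted p of 0.199, and without L63RhoA array 1 it was -0.57 with an adjusted p of 0.0455. No other single omission made Txn1 pass (limma adjusted p up to 0.420). Txnrd1, the reductase that recharges thioredoxin, measured 7.65, 6.90, 7.03 and 7.46 on L63RhoA arrays and 7.25, 7.50, 7.03 and 7.61 on EV arrays. Values spread within both groups by more than the log2 difference of -0.09 (95% interval -0.49 to 0.31).

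Srxn1, sulfiredoxin, which repairs overoxidized peroxiredoxins, measured 9.70, 9.50, 9.49 and 9.42 on L63RhoA arrays and 9.32, 9.39, 9.06 and 9.36 on EV arrays. Every L63RhoA array was above every EV array. The log2 difference was 0.25 ± 0.10 (SE), limma adjusted p = 0.185, and its other probes gave 0.35 and 0.22. Prdx1, an abundant cytosolic peroxiredoxin, measured 13.91, 14.01, 13.90 and 13.91 on L63RhoA arrays and 13.75, 13.72, 13.68 and 13.75 on EV arrays. The groups stood apart, yet the log2 difference of 0.21 ± 0.08 (SE, limma adjusted p = 0.158) became -0.01 with median scaling, and a second Prdx1 probe gave 0.50.

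The promoters of Srxn1 (chr2:152105274-152105573, plus strand) and Prdx1 (chr4:116685349-116685648, plus strand; both GRCm38.p6) are shown because they were the members whose windows held both motifs, in capitals.
Srxn1 promoter: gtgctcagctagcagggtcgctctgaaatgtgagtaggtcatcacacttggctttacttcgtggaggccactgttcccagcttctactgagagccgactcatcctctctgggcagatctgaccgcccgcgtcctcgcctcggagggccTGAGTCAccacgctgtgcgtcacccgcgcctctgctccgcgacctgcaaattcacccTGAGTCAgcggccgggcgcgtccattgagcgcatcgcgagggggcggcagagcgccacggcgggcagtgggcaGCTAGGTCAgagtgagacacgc
Prdx1 promoter: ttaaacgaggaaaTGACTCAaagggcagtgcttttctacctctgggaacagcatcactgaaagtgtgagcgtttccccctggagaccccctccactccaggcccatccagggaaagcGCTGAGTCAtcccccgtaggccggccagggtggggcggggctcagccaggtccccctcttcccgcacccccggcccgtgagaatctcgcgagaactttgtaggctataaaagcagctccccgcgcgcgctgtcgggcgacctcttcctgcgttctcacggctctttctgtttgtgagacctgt
Counted from the start site, the Srxn1 window had AP-1 letters at -102 to -96 and -45 to -39 and the element core on the minus strand at 29 to 37. In Prdx1, AP-1 letters lay at -237 to -231 and -131 to -125, and the element core at -133 to -125 covered the stretch nearer the start. The element core was also found in a window of Nfe2l2, Gclm, G6pdx, Txnrd1, Sod1, Mgst1 and Ugdh, and the AP-1 motif in one of Mgst2, Aldh1a1 and Aox1.

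Other peroxiredoxins differed little by their brightest probes, with 0.08 for Prdx2, 0.05 for the mitochondrial Prdx3 and -0.10 for Prdx4 of the endoplasmic reticulum. Prdx2 was read by 3 probes that disagreed. Its dimmest probe measured 6.64, 6.63, 6.69 and 6.73 on L63RhoA arrays and 7.06, 7.13, 7.08 and 7.19 on EV arrays. That probe was lower on every L63RhoA array, by -0.45 ± 0.08 on the log2 scale (SE, limma adjusted p = 0.0458 over all probes). The remaining probe was also lower, by -0.24 (limma adjusted p = 0.185 over all probes), and only the brightest had a positive difference. Prdx5 and Prdx6 had no probe here.

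**Figure D4:**
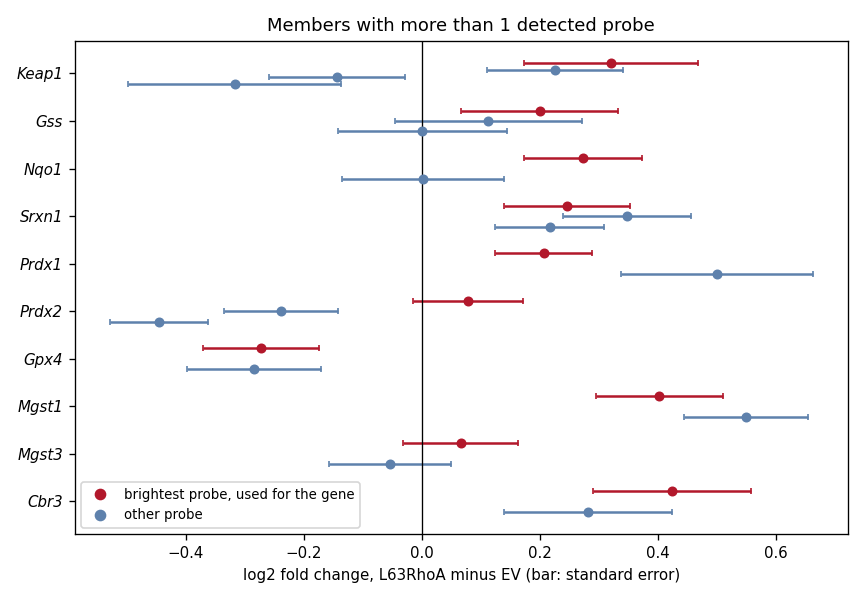
Log2 fold change, L63RhoA minus EV, with its standard error for each detected probe of the 10 members with several detected probes, the brightest probe in red. Probes of Keap1, Prdx2 and Mgst3 lie on both sides of 0, while those of Srxn1, Mgst1, Prdx1 and Cbr3 all lie above it and those of Gpx4 below it.

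Superoxide dismutases and catalase did not pass. Sod1, the cytosolic copper-zinc enzyme, was higher on every L63RhoA array, with a log2 difference of 0.16 (95% interval -0.02 to 0.33, limma adjusted p = 0.244). The mitochondrial Sod2 differed by 0.04, the extracellular Sod3 by -0.16, and catalase, Cat, which splits hydrogen peroxide, by -0.26 (95% interval -0.61 to 0.09).

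Among the glutathione peroxidases, Gpx4, which reduces lipid hydroperoxides in membranes, measured 11.14, 11.26, 11.04 and 10.93 on L63RhoA arrays and 11.27, 11.36, 11.42 and 11.41 on EV arrays. Each L63RhoA array was below each EV array, by a narrow margin at L63RhoA array 2. The log2 difference was -0.27 ± 0.10 (SE) with a limma adjusted p of 0.141, and a second probe gave -0.28. Gpx1, the main cytosolic enzyme, differed by 0.13 and Gpx7 by -0.06, and Gpx3, the plasma enzyme, was detected on 2 L63RhoA arrays and 0 EV arrays and was not tested.

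Mgst1, the microsomal glutathione transferase that also reduces lipid peroxides, was the transferase with the largest log2 difference of the 5 tested. It measured 10.02, 10.03, 10.21 and 9.96 on L63RhoA arrays and 9.77, 9.41, 9.77 and 9.66 on EV arrays. The groups did not overlap, and EV array 2 was the lowest. The log2 difference was 0.40 ± 0.11 (SE), a fold of 1.32, with a limma adjusted p of 0.0961, and it passed without L63RhoA array 1 (0.42, adjusted p = 0.0423), without EV array 3 (0.44, adjusted p = 0.0414) and as the mean of its probes (0.48, adjusted p = 0.04999). Without any of the other arrays Mgst1 did not pass (limma adjusted p up to 0.255). A second, dimmer Mgst1 probe measured 9.04, 9.30, 9.19 and 8.97 on L63RhoA arrays and 8.57, 8.54, 8.73 and 8.47 on EV arrays, and its log2 difference of 0.55 passed (limma adjusted p = 0.0462 over all probes). Mgst2 differed by 0.00, Mgst3 by 0.07, Gsto1 by -0.01 and Gstz1, which isomerizes maleylacetoacetate, by 0.18, while the mitochondrial Gstk1 was detected on 0 of 8 arrays.

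**Figure D5:**
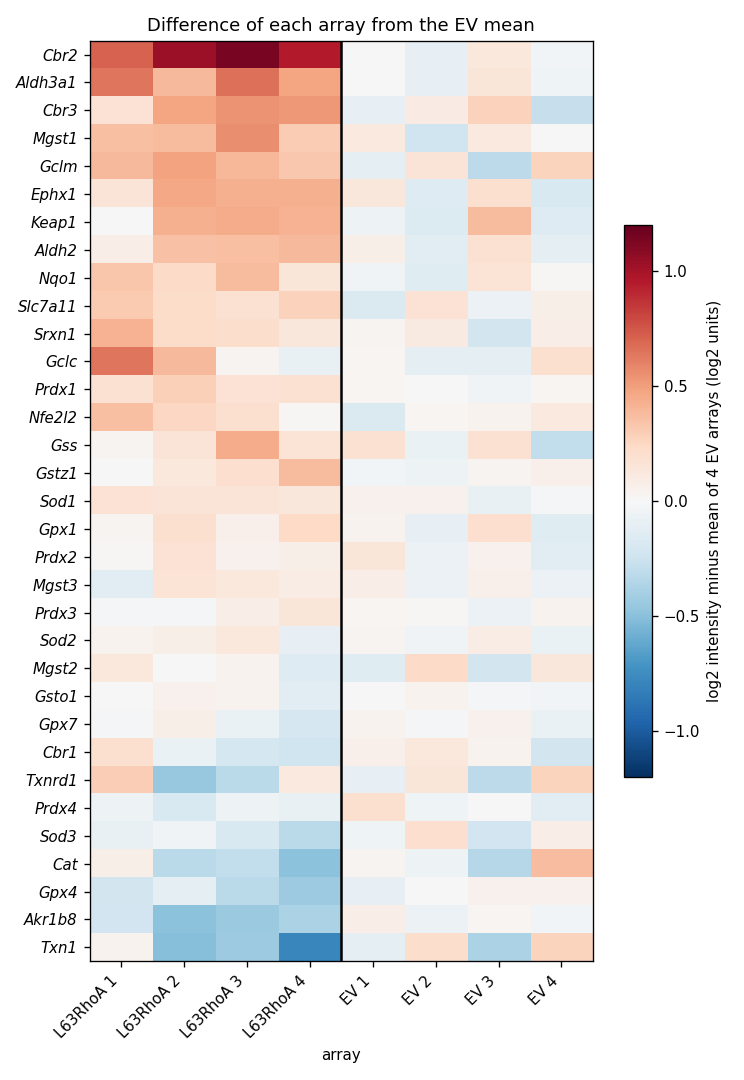
Log2 intensity of each array minus the mean of the 4 EV arrays, for the 33 tested members (rows, ordered by log2 fold change) on the L63RhoA arrays (left) and EV arrays (right). Cbr2 and Aldh3a1 are red on every L63RhoA array, while L63RhoA array 1 is paler than the other L63RhoA arrays for Cbr2, Keap1, Cbr3, Aldh2 and Ephx1.

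Several members followed the arrays that stood apart. Relative to the mean of the other arrays of its group, L63RhoA array 1 differed by -0.44 for Keap1, -0.34 for Cbr3, -0.29 for Aldh2 and -0.28 for Ephx1, and EV array 3 by 0.51, 0.37, 0.25 and 0.26 for the same genes in that order. Cbr2 shifted likewise, by -0.33 at L63RhoA array 1 and 0.17 at EV array 3. Its log2 difference was 1.08 without both arrays and 0.95 with all arrays. For Txn1, Txnrd1 and Cat the shifts ran the other way, with 0.62, 0.52 and 0.44 at L63RhoA array 1 and -0.51, -0.42 and -0.46 at EV array 3. Leaving out L63RhoA array 1 gave 8 member calls of 33 (24.2%) where 1260 of all 8360 genes passed (15.07%), and leaving out EV array 3 gave 7 member calls (21.2%) where 917 of all genes passed (10.97%). The gain in calls was not confined to members, although the member shares were the larger, in genes chosen with earlier results known. The same arrays scored apart from their groups on the component within groups, and the cause of the shifts was not tested.

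Of 126 other genes of the pathway and its neighbours, 84 were tested and 0 passed a limma adjusted p under 0.05, and 0 by the methods' t-test after adjustment. At an unadjusted limma p under 0.05, 12 were higher (14.3%, against 13.7% of all genes) and 9 were lower (10.7%, against 10.7% of all genes), so their shares were near those of all genes. The counts by list that follow are at the same unadjusted threshold. Other NRF2 targets had 6 higher and 1 lower of 18. Taldo1, transaldolase of the pentose phosphate pathway, measured 10.73, 11.01, 10.96 and 11.10 on L63RhoA arrays and 10.53, 10.43, 10.63 and 10.41 on EV arrays, without overlap (0.45, limma adjusted p = 0.0789). Slc3a2, the partner chain of the cystine transporter, differed by 0.42 (adjusted p = 0.0854) and Osgin1, an oxidative stress induced growth inhibitor, by 0.57 (adjusted p = 0.113). The classical targets Hmox1, heme oxygenase, and Me1, malic enzyme, differed by 0.05 and -0.0048, with 95% intervals of -0.24 to 0.33 and -0.23 to 0.22.

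At an unadjusted limma p under 0.05, which 13.7% of all genes passed as higher and 10.7% as lower, NRF2 partners and the KEAP1 complex had 0 higher and 2 lower of 11 (5 positive and 6 negative differences), Maff, a small MAF protein, at -0.51 (limma adjusted p = 0.109) and Btrc, a ubiquitin ligase subunit, at -0.47 (adjusted p = 0.132), whereas Gsk3b, a kinase that marks NRF2 for that ligase, differed by 0.21. Thioredoxin, glutaredoxin and methionine sulfoxide genes outside the members had 4 higher and 1 lower of 14 at that threshold, among them the mitochondrial Txnrd2 at 0.50, the thioredoxin inhibitor Txnip at 0.40 and the glutaredoxin Glrx at -0.28 (limma adjusted p = 0.164, 0.170 and 0.164). Glutathione turnover genes had 0 higher and 1 lower of 9 at that threshold (5 positive and 4 negative differences), with the glutathione-cleaving Chac2 at -0.31, the oxoprolinase Oplah at 0.40 and the cyclotransferase Ggct at -0.14. Other aldehyde and carbonyl enzymes had 2 higher and 2 lower of 24 at that threshold, with the hydroxysteroid dehydrogenase Akr1c18 at 0.34 (limma adjusted p = 0.0873), Akr1e1 at -0.33 (adjusted p = 0.0935) and Dhrs1 at -0.23. Oxidant sources had 0 higher and 2 lower of 8 at that threshold (4 positive and 4 negative differences), Nos2, inducible nitric oxide synthase, at -0.62 (limma adjusted p = 0.0961) and Xdh, xanthine dehydrogenase, at -0.34, with Rac1, a small GTPase of NADPH oxidases, at 0.21.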

How the data were processed

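RNA of 4 L63RhoA and 4 EV samples was measured on Illumina MouseRef-8 v2.0 BeadChips. The authors deposited signal intensities on a linear scale, extracted with GenomeStudio (named in the submitters' processing notes, version not given in the sources used here), and a detection p-value for each probe and array. The authors' processed values, deposited on the log2 scale, were used as an alternative. Their median log2 difference (0.107 over the members) and count of genes passed (116) matched those without further background correction. The log2 differences of Nfe2l2 (0.159) and Keap1 (0.256) also matched, so these alternatives are not separate checks. The methods name a variance stabilizing transformation and quantile normalization in lumi, and permutation p-values. Gene names came from the platform annotation, with 1 symbol for 23978 of 25697 probes and none for 1719, and 23962 symbols were updated through the RefSeq gene table.

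Intensities were background corrected from the detection p-values, quantile normalized and taken as log2 with neqc (limma 3.58.1, R 4.3.3, offset 16). Background correction stretches the differences of dim probes. The filter kept 12349 probes (11634 named) whose detection p was under 0.05 on 4 or more of 8 arrays, and each gene was read by its brightest probe. L63RhoA was compared with EV by limma (lmFit and eBayes, two-sided) with Benjamini-Hochberg adjustment over 8360 genes, or over all kept probes where stated. The methods' t-test was an unpaired two-sided test per gene on the same values. The paper names it for comparing pairs of groups, not for its arrays. Samples were grouped by their titles. The number of arrays limits the precision.

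All members are named. Values per array are given for members at an unadjusted p under 0.05 and for Nfe2l2, Keap1, Nqo1, Gclc, Gclm, Txnrd1, Srxn1 and Slc7a11, and of each other list the 3 genes with the smallest p, plus Hmox1, Me1 and Txnip, are given. The dimmer Prdx2 and Mgst1 probes and Taldo1 were given by array, and the promoters of Srxn1 and Prdx1 shown, after their values or motifs were seen. Members and lists were chosen with earlier results of these data known. Alternatives were median scaling, other filters, the values processed by the authors, omission of the background step, array weights, a replicate block, a robust fit with a variance trend, the t-test, other probe summaries, leaving out each array, and, added after seeing the data, leaving out EV arrays 2 and 4, the dimmest by mean signal.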

Additional observations from a re-analysis of the deposited data

Results flagged for a closer look

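In 4 of 66 groups of arrays (33 members in each of the L63RhoA and EV groups), a single array lay far from the other 3 by Dixon's ratio of its gap to the range of the group. Chance alone marks about 1 in 20 groups. L63RhoA array 1 was the low array for Keap1 (ratio 0.939), Aldh2 (0.871) and Ephx1 (0.874), and it is the array that scored apart from its group on the component within groups. L63RhoA array 2 was the high array for Prdx1 (0.948), where the other L63RhoA arrays lay between 13.90 and 13.91.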

How the results depend on the processing

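With all arrays 59 genes passed, 2 of them members. The count of genes was 116 both on the authors' values and without further background correction, 30 with median scaling, 139 with a variance trend and robust estimation, 2098 with array weights, 1615 and 27 by the methods' t-test at p under 0.05 and after Benjamini-Hochberg, 7 without EV replicates 2 and 4, and 17 to 1260 with 1 array left out. The count of members was 1 with median scaling, 11 with array weights, 14 and 1 by the methods' t-test at p under 0.05 and after Benjamini-Hochberg, 4 as probes, 0 without EV replicates 2 and 4, and 1 to 8 with 1 array left out (8 without L63RhoA array 1 and 7 without EV array 3). As probes, 4 of the 48 member probes kept passed, 3 of them higher, where 79 of 12349 kept probes passed. Members past a fold of 2 with an adjusted p under 0.20 numbered 1 with array weights and 0 to 1 with 1 array left out. The share of all genes past it was 0.132% with all arrays and was not counted under these alternatives.

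With the replicate block 18 genes and 1 member passed. Deviations of same-numbered arrays correlated at -0.10, -0.22, 0.27 and -0.23, so the numbers were not taken as pairs. Under the block Cbr2 had an adjusted p of 0.0281 and Aldh3a1 of 0.119 (limma).

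The sign reversed for 7 members, of which Prdx1 had a difference of 0.21 with all arrays and the others less than 0.10 in size. Txnrd1 was 0.12, Prdx2 -0.0176, Sod2 -0.0213, Mgst3 -0.0037 and Gsto1 0.0019 without EV replicates 2 and 4. Prdx1 was -0.0082 and Sod2 -0.0267 with median scaling, Prdx2 -0.20 as the mean of its probes and Mgst2 -0.0478 with array weights. With 1 array left out Txnrd1 ranged between -0.219 and 0.0304, Mgst2 between -0.0711 and 0.0792 and Gsto1 between -0.0252 and 0.0358. Some alternatives reuse the same values and are not separate checks. Over all members and alternatives judged at the adjusted threshold, 608 log2 differences kept their sign and side of it, 11 no longer passed, 24 newly passed and 16 reversed. The causes were not tested. Dim probes such as those of Gclc and Cbr2 lie near background, which limits their folds.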
